A study of Drosophila melanogaster with 2 samples.

Results

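Of 2868 binding peaks called for the fly zinc finger protein Kumgang, 261 (9.10%, 95% Wilson interval 8.10 to 10.2) had their summit between genes and away from every promoter. They are called distal intergenic peaks here. A peak was taken if its summit lay outside every annotated gene of Ensembl release 115 and over 500 bp from the nearest transcription start site (TSS) of any gene, with transposable elements not counted as genes. The data come from chromatin immunoprecipitation with sequencing on whole adult male Drosophila melanogaster of the strain CG5204-GFP, in which the gene kmg (CG5204) is expressed as a fusion to eGFP, precipitated through the GFP tag. The labels give 1 group with 2 biological replicates, no driver tissue and no age, and the flies of both replicates carried the tagged gene. The 2868 peaks are the deposited dm6 list thresholded by the irreproducible discovery rate (IDR), which asks how well peak ranks hold between replicates. Signal is the value that the authors' peak caller gave each peak. No label or header gives its scale or the read depth, so intervals cover only the counting of peaks. Nothing in the labels says that the replicates came from separate fly cultures.

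In Drosophila, genes lie close together, and the sequence between them holds enhancers, insulators and the ends of transcription units. Enhancers act on promoters at a distance, while insulator proteins such as BEAF-32 sit between neighbouring genes. Kumgang is a testis protein, known from spermatocytes, where it works with the chromatin remodeller Mi-2 to hold down genes of somatic and other programmes. A whole fly mixes many tissues, and peak lists cannot tell in which cells a site was occupied.

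The sequences around 5 of the 12 strongest distal intergenic peaks are shown first, since these sites lead the class in signal. Each runs 100 bp to either side of the summit on the plus strand of the Release 6 reference (dm6). Capitals mark the words searched for below, on either strand: the TATA box, read as TATAAA, which the general factor TBP binds; the site of the insulator protein BEAF-32, read as CGATA; the DRE, bound by the factor Dref and read as TATCGATA, which contains the BEAF-32 word; the GAGA element, bound by GAGA factor and read as GAGAG; and the site of the GATA family of factors, read as AGATAA. The gap COX7AL2/CG31668 is shown with a pair of peaks because it holds the strongest of all and another of the leading 8, Alp13/lncRNA:CR45054 as a peak with a complete DRE, Sol1/Cyp9f2 as the peak of a short gap between gene ends, and CG7560/CG6149 as the one with most kinds of word.
COX7AL2/CG31668, first peak, chr2L:2202321-2202521: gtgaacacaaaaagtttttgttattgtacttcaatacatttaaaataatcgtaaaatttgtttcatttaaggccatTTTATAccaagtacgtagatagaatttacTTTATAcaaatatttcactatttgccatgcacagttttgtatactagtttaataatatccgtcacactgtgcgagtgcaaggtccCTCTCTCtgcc
COX7AL2/CG31668, second peak, chr2L:2201147-2201347: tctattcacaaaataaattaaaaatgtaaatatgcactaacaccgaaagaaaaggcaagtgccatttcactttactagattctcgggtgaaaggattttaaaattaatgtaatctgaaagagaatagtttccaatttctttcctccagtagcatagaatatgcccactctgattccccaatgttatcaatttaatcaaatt
Alp13/lncRNA:CR45054, chr3R:10079693-10079893: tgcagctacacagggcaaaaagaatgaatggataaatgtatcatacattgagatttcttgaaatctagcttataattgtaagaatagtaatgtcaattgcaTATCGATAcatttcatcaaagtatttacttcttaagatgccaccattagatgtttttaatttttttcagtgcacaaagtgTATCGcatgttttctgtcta
Sol1/Cyp9f2, chr3R:12403034-12403234: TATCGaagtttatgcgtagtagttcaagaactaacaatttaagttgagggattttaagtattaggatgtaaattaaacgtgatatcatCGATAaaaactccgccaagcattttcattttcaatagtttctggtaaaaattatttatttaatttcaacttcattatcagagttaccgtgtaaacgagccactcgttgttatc
CG7560/CG6149, chr3L:11431364-11431564: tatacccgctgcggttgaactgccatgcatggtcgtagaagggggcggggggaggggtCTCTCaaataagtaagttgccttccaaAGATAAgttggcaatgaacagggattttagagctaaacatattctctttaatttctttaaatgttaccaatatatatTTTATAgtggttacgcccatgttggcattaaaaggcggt
The strongest peak carried the TATA word on both sides of its summit and a GAGA element near its edge, and its neighbour in the same gap carried none of the words. The Alp13 window had a complete DRE at its summit. The GC content of these windows was 31.3% and 30.8% for the COX7AL2 pair, 30.3% for the Alp13 window, 30.3% for Sol1/Cyp9f2 and 41.8% for CG7560/CG6149.

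Distal intergenic peaks took up a smaller part of the list than of the genome. Bases that meet the same rule made up 27.1% of the 6 chromosome arms (36.3 of 133.6 Mb), against the 9.10% of peaks. The weaker regions of the pooled list, which includes background, sat closer to the genome: 8062 of 27131 (29.7%, 95% Wilson interval 29.2 to 30.3) met the rule. Within the IDR peaks the share was lowest among the strongest. With the list cut by signal into 4 equal groups of 717, the share was 4.88% (35 peaks) in the group of highest signal, then 9.21% and 9.76%, and 12.6% (90 peaks) in the group of lowest signal. The median signal of distal intergenic peaks was 63.6, with quartiles of 49.3 and 91.9 and a range of 42.5 to 736. Intergenic peaks within 500 bp of a TSS, of which there were 853, had a median of 82.9 (quartiles 57.6 and 143). The 903 intronic peaks over 500 bp from every TSS had a median of 66.3 (quartiles 50.5 and 103), and over all IDR peaks the median was 73.0.

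The 12 strongest distal intergenic peaks lay beside genes of many kinds. The first, on 2L between COX7AL2, named for a cytochrome c oxidase subunit, and CG31668, had a pooled signal of 736, with 370 in replicate 1 and 368 in replicate 2. It lay 3745 bp from the nearest TSS and 1300 bp behind the 3' end of CG31668. A further peak of the same gap ranked eighth, with 319 pooled, 164 in replicate 1 and 155 in replicate 2, and the remaining one of the gap had 49.5. Both strong peaks had nearly equal replicates. The second peak lay on 2R from 13035205 to 13035471, between Su(z)2, a Polycomb group gene, and CG13323, and had 465 pooled, 232 in replicate 1 and 233 in replicate 2. Its gap was 36783 bp long and its nearest TSS 11923 bp away, the farthest among the 12.

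Alp13, which encodes an alkaline phosphatase, and lncRNA:CR45054 run away from each other on 3R with 3 peaks between them. Their pooled signals were 461, 431 and 153. In replicates 1 and 2 the first had 217 and 227, the second 197 and 231, and the third 53.2 and 93.7. The weakest of these 3 was thus also the one whose replicates differed most in proportion. The Alp13 promoter itself had an IDR peak of 76.2, below all 3.

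Other members of the leading 12 were near noncoding genes or gene ends. On 2R, the peak between asRNA:CR45326 and CG46429 had 354 pooled, 151 in replicate 1 and 199 in replicate 2. On 2R as well, a peak between lncRNA:CR44761 and Ppa, which encodes an F-box protein that binds Paired, had 322 pooled, with 145 and 173. Both were higher in replicate 2. The peak between Sol1 and the cytochrome P450 gene Cyp9f2 (3R from 12403009 to 12403270) had 327 pooled, with 153 and 169, in a gap of 437 bp where both genes end. The peak between CG9498 and ppk7, a gene of the pickpocket sodium channel family, had 295 pooled, with 135 and 158, and lay 331 bp behind the 3' end of ppk7. The last 3 of the 12 had nearly equal replicates. They were a peak between lncRNA:CR45641 and lncRNA:CR45643 (293 pooled, 145 and 144), one between jp, which encodes junctophilin, and lncRNA:CR44149 (285 pooled, 146 and 136), and one between CG7560 and CG6149 (269 pooled, 139 and 125).

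**Figure D1:**
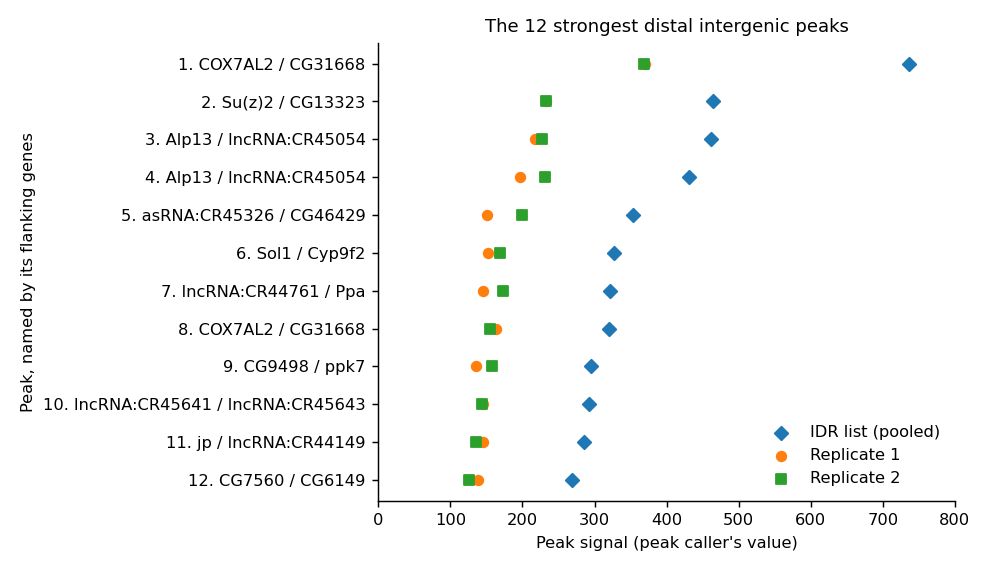
Signal of the 12 strongest distal intergenic peaks (horizontal axis, the peak caller's value), one line per peak named by its flanking genes, with diamonds for the IDR list, circles for replicate 1 and squares for replicate 2. The replicate values lie close together at each peak, and the first peak, at 736 pooled, stands well above the second at 465.

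Most distal intergenic peaks were found in both replicates, about as often as other IDR peaks. A region with its summit within 100 bp was listed in both replicates for 232 of 261 (88.9%, 95% Wilson interval 84.5 to 92.2), where the share over all 2868 IDR peaks was 88%. The difference from all other IDR peaks was 1.01 percentage points (95% Newcombe interval −3.54 to 4.53). Of the others, 13 were matched only in replicate 1, 15 only in replicate 2 and 1 in neither, and these 29 had a median pooled signal of 51.1. The strongest of them, in the gap between NijA, which encodes the membrane protein Ninjurin A, and CG43245, had 143 pooled and 67.2 in replicate 2, and a region of 72.3 in replicate 1 lay within 300 bp. These lists of 30000 regions reach into background, so a match is a weak requirement. All classes also come from a list thresholded by IDR, so a high share in each follows in part from that selection. Among the 2868 strongest regions of each replicate, 178 distal intergenic peaks were matched in replicate 1, 183 in replicate 2 and 123 in both. The share over all IDR peaks is not given beside these counts, so they are no result about the class.

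The replicate signals of matched members differed more than at other sites. Over the 232 matched peaks the median signal was 33.5 in replicate 1, with a range of 9.13 to 370, and 33.9 in replicate 2, with a range of 10.4 to 368. The ratio of replicate 1 to replicate 2 had a median of 0.947 with quartiles of 0.714 and 1.28 and a range of 0.249 to 4.23, so neither replicate was uniformly higher. At 39 peaks (16.8%, 95% Wilson interval 12.5 to 22.2) the signals were over 2-fold apart, 17 higher in replicate 1 and 22 higher in replicate 2. The share was 9.50% for intergenic peaks within 500 bp of a TSS, a difference of 7.31 points (95% Newcombe interval 2.45 to 13.0). For intronic peaks it was 11.8%, a difference of 5.03 points (0.128 to 10.8). These classes also differ in signal. Among the 50 weakest members, 12 of the 40 matched peaks were over 2-fold apart, and among the 50 strongest 1 of the 47. The rest of the 39 lay between these groups. They include the largest ratio of 4.23, at a peak of 54.9 pooled between lncRNA:CR45541 and Hex-A. The part of signal in the difference between classes was not tested. Across the 232 peaks, which share both libraries and are not independent, Spearman's rho between replicates was 0.533.

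**Figure D2:**
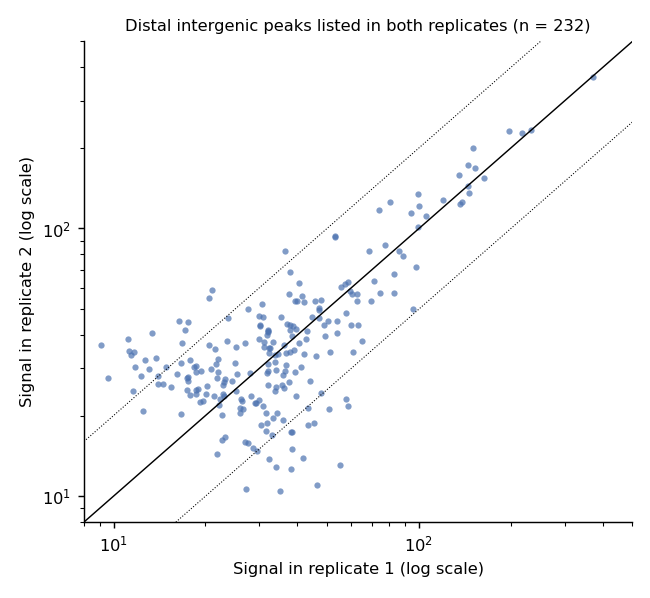
Signal in replicate 2 (vertical, log scale) against replicate 1 (horizontal, log scale) for the 232 distal intergenic peaks listed in both replicates. The solid line marks equal signal and the dotted lines a 2-fold difference: 39 points lie outside the dotted lines, 1 of them among the 50 strongest members.

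By the pooled list's own statistic, distal intergenic peaks were called with less certainty than promoter-near ones. A false discovery rate of at most 5% was reached by 143 of 261 (54.8%, 95% Wilson interval 48.7 to 60.7), where the share over all IDR peaks was 62.4%. Intergenic peaks within 500 bp of a TSS reached it in 70.5% of cases, a difference of −15.7 percentage points (95% Newcombe interval −22.4 to −8.96). Intronic peaks reached it in 56.0%, and that difference of −1.25 points had an interval of −8.11 to 5.51. The highest false discovery rate of a member was 23.1%.

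Although promoters themselves were left out, the peaks lay closer to TSSs than the sequence they could have fallen in. The median distance to the nearest TSS was 1740 bp, with quartiles of 885 and 4031 bp, against a median of 5886 bp over all bases that meet the rule and 4146.5 bp over the weaker regions. Between 500 and 1000 bp from a TSS there were 73 peaks, or 25.8 per Mb. The density was 14.9 per Mb from 1000 to 2000 bp (68 peaks) and 8.47 per Mb from 2000 to 5000 bp (76 peaks). It was 2.93 per Mb from 5000 to 10000 bp (21 peaks) and 1.81 per Mb beyond that (23 peaks). The weaker regions did not thin out in this way up to 10000 bp, with 291, 283, 274 and 259 per Mb over the same 4 distances, and 128 per Mb beyond. Signal did not fall with distance in a regular way: the medians were 76.0, 59.6, 64.8, 50.2 and 61.9 from the nearest to the farthest bin.

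**Figure D3:**
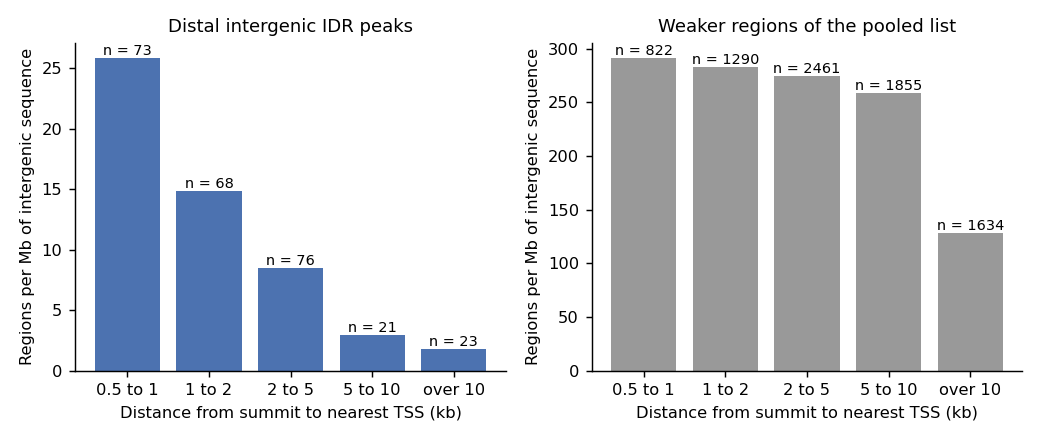
Number of regions per Mb of intergenic sequence (vertical) by distance from the summit to the nearest TSS in kb (horizontal), for the 261 distal intergenic peaks on the left and the 8062 weaker regions of the pooled list on the right, with the number of regions over each bar. Peak density falls from 25.8 to 1.81 per Mb, while the weaker regions stay between 259 and 291 per Mb up to 10 kb.

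At the limit of 500 bp, peaks on either side had similar signals. The 3 just inside the rule were between CG3348 and CG3339 (503 bp, signal 76.0), CG33969 and lncRNA:CR45677 (515 bp, 61.2) and lncRNA:CR44143 and lncRNA:CR44145 (520 bp, 52.7). The 3 just outside it were between CG5958 and CG5973 (500 bp, 90.8), CG17111 and Cow (499 bp, 65.0) and lncRNA:CR45277 and L (499 bp, 51.0). At the other extreme, the farthest peak from a TSS (43004 bp) lay on 2L between CR42530 and CR41519, with 46.2 pooled, 31.6 in replicate 1 and 17.5 in replicate 2. The next ones, at 32900 and 31971 bp, both lay in the 75047 bp gap between NijA and CG43245, with 63.1 and 143 pooled.

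The peaks fell in gaps of all sizes, and some shared a gap. The median gap between the flanking genes was 7420 bp, with quartiles of 2908 and 15083 bp, against 14736 bp for the weaker regions. The 261 peaks lay in 210 gaps, and 34 gaps held 2 or more, with 85 peaks among them. Another IDR peak of any class lay within 1000 bp of 57 peaks and within 5000 bp of 132. For 72 of these 132 the nearest one was itself distal intergenic, for 36 intergenic near a TSS, for 7 intronic and for 17 of another kind. Such counts are not given for other classes or the weaker regions, so no clustering particular to these peaks is read from them. A few neighbours are not separate sites, since 16 peaks overlapped another distal intergenic peak and merging them left 253. An IDR peak of another class was overlapped by 7 peaks, and their part in the density near TSSs was not tested.

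In the gaps with most peaks, pooled signals ran from below the class median of 63.6 to above its upper quartile of 91.9. Between lncRNA:CR44526 and SrpRbeta, the beta subunit of the signal recognition particle receptor, 5 peaks had pooled signals of 204 (on 3L from 8700667 to 8701096), 73.8, 61.0, 50.2 and 50.1. Between Hacd1, a fatty acid elongation enzyme, and Rh5, the blue-sensitive opsin of the eye, 5 peaks had 115, 81.5, 70.5, 50.3 and 46.1, and the intervals of the leading pair overlap. Within 100 bp the first was matched only in replicate 1 (68.5), and its nearest region in replicate 2 (49.5) was that of the overlapping second peak. The fourth was matched only in replicate 2 (51.8), also within 300 bp. On the other side of Rh5 a peak of 260 on 2L from 12011153 to 12011272 (136 and 124 in replicates 1 and 2) lay 1417 bp behind its 3' end. Upstream of foxo, the forkhead factor of insulin signalling, 4 peaks had 163, 108, 65.2 and 49.1, the first, on 3R from 14052126 to 14052555, with 77.2 and 86.8 in the replicates and 4604 bp from the nearest TSS. The gap between NijA and CG43245 also held 4 peaks, with pooled signals from 43.3 to 143.

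Summed over all distances, the orientation of the flanking genes was close to that around bases equally far from a TSS. The genes on either side pointed the same way for 131 peaks (50.2%), away from each other for 75 (28.7%, 95% Wilson interval 23.6 to 34.5) and towards each other for 55 (21.1%, 16.6 to 26.4). Over all bases that meet the rule these shares were 50.3%, 20.4% and 25.6%, so peaks lay more often between divergent genes. Over bases taken at the peaks' own TSS distances they were 52.4%, 26.4% and 20.1%, all inside the intervals of the peaks. Single distances were also compared, with intervals not adjusted for their number. Peaks in the same gap share their orientation, so all these intervals are narrower than separate positions would give. From 500 to 1000 bp, 3 of 73 peaks (4.11%, 1.41 to 11.40) lay between convergent genes, against 11.44% of bases, barely outside the interval. Beyond 10000 bp, 12 of 23 (52.2%, 33.0 to 70.8) did, against 30.8% of bases and 33.1% of weaker regions. The weaker regions lie inside that interval. The base share also counts bases with a gene on only 1 side, 3.72% of all that meet the rule, while no peak was of that kind. For convergent genes no departure is therefore read at that distance. Between tandem genes lay 6 of 23 (26.1%, 12.5 to 46.5), against 47.4% of bases and 50.7% of weaker regions. Given those limits, the values at single distances are a description. The nearest gene boundary was a 3' end for 120 peaks (46.0%, 40.0 to 52.0), against 52.7% of all bases and 45.6% of bases at the same distances.

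Gene ends close by were frequent as well. A gene's 3' end faced the summit within 500 bp at 46 peaks (17.6%, 95% Wilson interval 13.5 to 22.7), and at 6.27% of all bases and 7.96% of the weaker regions. At the same TSS distances the shares were 13.9% of bases and 13.6% of weaker regions, both inside that interval. By distance, and with intervals not adjusted for the number of bins, the share was above that of bases beyond 2000 bp. From 2000 to 5000 bp it was 11 of 76 peaks (14.5%, 8.28 to 24.1) against 5.52% of bases and 5.36% of weaker regions. From 5000 to 10000 bp it was 3 of 21 (14.3%, 4.98 to 34.6) against 2.09% and 2.53%. Beyond 10000 bp it was 1 of 23 (4.35%, 0.772 to 21.0) against 0.712% and 1.96%, where the weaker regions lie inside the interval. The gene ending there was protein-coding at 36 of the 46 peaks, and their median signal of 67.6 was near the 63.4 of the rest. Besides Sol1/Cyp9f2 and ppk7, examples were a peak 55 bp behind lncRNA:CR44759 (147 pooled, 68.4 and 82.1 in the replicates), a peak 253 bp behind Lkr, the leucokinin receptor (121 pooled, 62.6 and 56.9), and a peak 272 bp behind Hr51, a nuclear receptor of the brain (97.0 pooled, 54.0 and 40.7). Distances are from the summit, and the peak beside lncRNA:CR44759 extends into that gene.

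**Figure D4:**
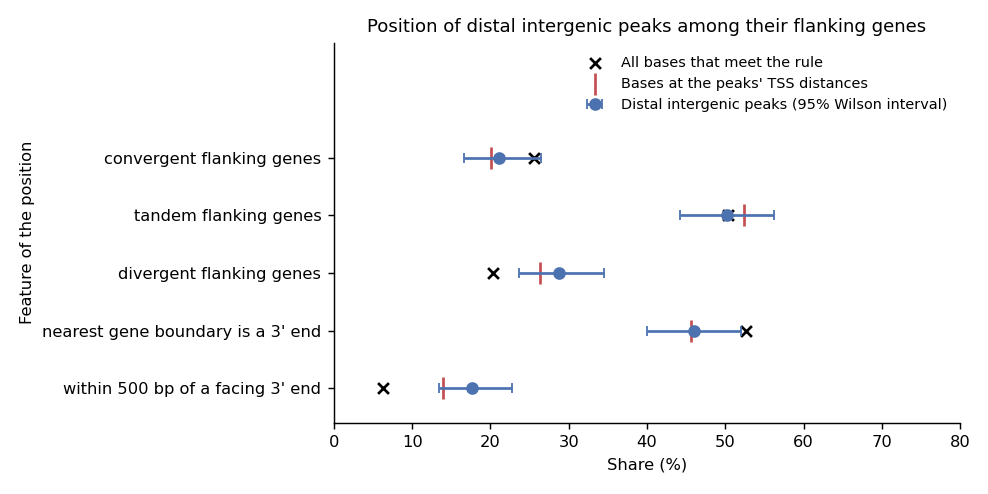
Share in percent (horizontal) of positions with each feature (vertical). Circles with bars are the 261 distal intergenic peaks with 95% Wilson intervals, crosses all bases that meet the rule, and red strokes bases at the same TSS distances as the peaks. Every red stroke lies inside its bar, while crosses lie outside for divergent genes, nearest 3' ends and 3' ends within 500 bp.

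Genes next to distal intergenic peaks had a promoter peak of their own more often than other genes beside intergenic sequence. Both flanking genes were protein-coding for 141 peaks, at least one was a noncoding RNA gene for 108, a tRNA gene for 9 and a pseudogene for 3. Among all 7635 protein-coding genes that flank sequence meeting the rule, 12.5% had an IDR summit within 500 bp of a TSS. Of the 296 that flank a distal intergenic peak 66 had one (22.3%, 95% Wilson interval 17.9 to 27.4), against 12.1% of the other 7339, a difference of 10.2 points (95% Newcombe interval 5.72 to 15.3). The share was 23.8% (41 of 172) for genes facing the peak by their 5' end and 20.3% (27 of 133) for those facing it by their 3' end. In all, 82 peaks had such a neighbour. The part in this difference of the 7 distal peaks that overlapped an IDR peak of another class was not tested. Promoter and distal peaks come from the same libraries and list, and nothing here says that they act on one another.

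The pairs went both ways in strength. CG46429 had a promoter peak of 548 and a distal peak of 354, and psq, which encodes the BTB factor Pipsqueak, 207 and 152. The distal peak was the stronger at CG9498 (295 against 114), at jp (285 against 46.7) and at foxo (163 against 70.7). At stv, the co-chaperone Starvin, they were nearly equal, with 147 at the promoter and 152 at the distal peak (3L from 13476762 to 13477191) 564 bp away.

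Known gene groups gave only small numbers of neighbours. Of 14 lists compared, homeobox and other developmental transcription factors had the most flanking genes, 7 of 296 (2.36%, 95% Wilson interval 1.15 to 4.80), and made up 1.19% of all genes flanking such sequence. Nuclear receptors and ecdysone response genes followed with 4 (1.35%, 0.527 to 3.42, against 0.236%). With 4 genes the latter rests on few sites and is given as a description. Genes of neurons also numbered 4 (1.35%, 0.527 to 3.42, against 0.733%), and spermatocyte and testis genes and signalling genes 3 each (1.01%, 0.345 to 2.94, against 0.354% and 0.485%). Cytoplasmic ribosomal proteins and chemosensory genes numbered 2 each (0.676%, 0.185 to 2.43, against 0.629% and 1.82%). Muscle, heat shock and cuticle genes numbered 1 each (0.338%, 0.0597 to 1.89, against 0.301%, 0.210% and 1.32%). Circadian clock, insulator, immune and histone genes numbered 0, which allows a share of up to 1.01% (3 counts of 296), and make up 0.144%, 0.0917%, 0.314% and 1.49% of all such genes. The share over all flanking genes lay inside the Wilson interval for the developmental factors and for each list with 1 to 4 genes except the nuclear receptors, so those counts are no result about the peaks. The same holds for clock, insulator and immune genes, whose shares lie below the limit for a count of 0. The histone share of 1.49% lies above that limit, and this is given as a description whose cause was not tested.

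Individual neighbours in these groups ranged from peaks near the floor of the list to peaks well above the median of the class. The eye selector gene ey on chromosome 4 had a peak of 77.0 (41.0 and 30.3 in replicates 1 and 2) 801 bp from its 5' end. Eip75B, an ecdysone-induced nuclear receptor, had 52.0 (14.5 and 26.3) and Eip93F, an ecdysone-induced factor, 49.9 (25.3 and 28.6) at a distance of 17704 bp. Stronger peaks lay beside nAChRalpha7, a nicotinic acetylcholine receptor subunit, on X from 19323887 to 19324023 (193, with 73.7 and 117), and Rim, a protein of the presynaptic active zone, on 3R from 17919021 to 17919450 (120, with 59.5 and 58.4). Among testis genes, CycB, the mitotic cyclin B, had a peak on 2R from 22802750 to 22803179 with 138 (71.3 and 63.5) and lay 556 bp from the summit by its 3' end. Mst87F, a structural sperm protein, had 62.4 (32.0 and 29.3) at 8111 bp and soti, which acts in sperm individualisation, 61.8 (43.3 and 21.4) at 1153 bp. The Wnt genes wg and Wnt4 flank a peak of 43.5 (17.5 and 26.9), near the floor of the list.

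The X chromosome held fewer distal intergenic peaks than its part of the list. It had 27 of 261 (10.3%, 95% Wilson interval 7.21 to 14.6), against 19.3% of all other IDR peaks, a difference of −8.95 points (95% Newcombe interval −12.5 to −4.42). Against intronic peaks over 500 bp from every TSS, 24.3% of which lay on the X, it was −13.9 points (−18.2 to −8.85), and against intergenic peaks near a TSS, with 14.1%, −3.72 points (−7.73 to 1.08). Of the sequence that meets the rule, the X held 14.5%, which lies inside the Wilson interval of its share of the peaks. Per Mb of that sequence there were 5.15 peaks on X, 9.53 on 2L, 4.30 on 2R, 7.48 on 3L and 8.75 on 3R. Chromosome 4 had 16.3 per Mb from 4 peaks. The arms 2R and X were thus both low. The weaker regions were also sparsest there among the large arms, with 140 per Mb on X and 180 on 2R against 279 on 2L, 225 on 3L and 270 on 3R. Males carry a single X, and the part of copy number in these densities was not tested. The median signal was 62.6 on X, between the 57.3 of 3L and the 80.5 of 2R.

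**Figure D5:**
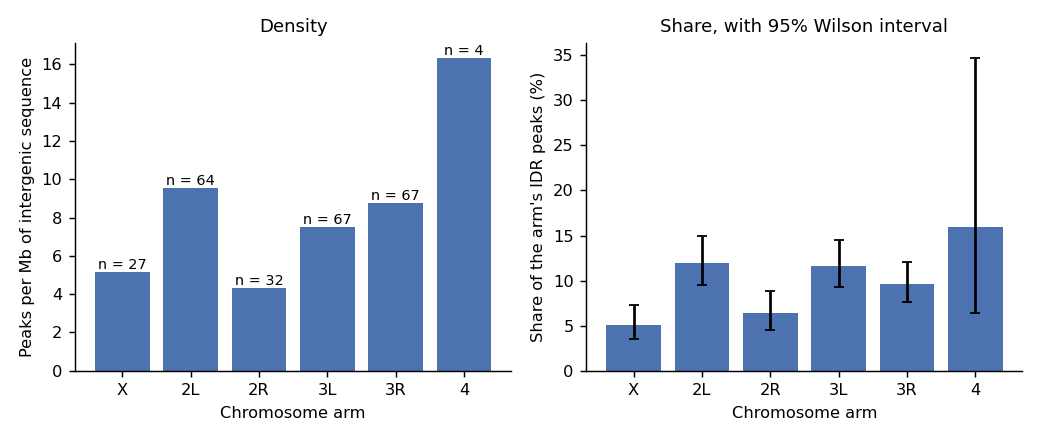
Distal intergenic peaks by chromosome arm (horizontal): on the left the number per Mb of intergenic sequence that meets the rule, with the number of peaks over each bar, and on the right the share in percent of the arm's IDR peaks with its 95% Wilson interval. X and 2R are low in both panels, and the high bar of chromosome 4 rests on 4 peaks.

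Repeats and base composition also differed from those of the sequence that meets the rule. An annotated transposable element held 2 of 261 summits (0.766%), the peaks between ppk11 and IP3K1 (signal 64.4) and between CG43774 and ed (46.6). Such elements make up 10.9% of the bases that meet the rule and hold 2.29% of the weaker summits. Reads from repeats are hard to place, and no label or header says how the authors' filters treated them. In windows of 201 bp around the summits, 19.9% of bases were soft-masked as repetitive in the reference, against 26.7% of all bases meeting the rule. For neither repeat measure were bases taken at the peaks' own TSS distances. The soft-masked share was not particular to the class. It was 20.4% at intronic peaks, 22.7% at intergenic peaks near a TSS and 21.0% over all IDR peaks. The mean GC content of the windows around distal intergenic summits was 37.0% (SD 7.32 over peaks), below the 41.4% (SD 9.43) of windows 500 bp to either side and the 40.9% (SD 8.46) of 174831 windows tiled over the sequence that meets the rule. Intergenic peaks near a TSS (34.5%, SD 6.79) and intronic peaks (35.4%, SD 6.20) were lower still.

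Few of the searched words were more frequent at distal intergenic peaks than in such sequence at large. Of 13 words, each compared with 5 other sets of windows and given with intervals not adjusted for that number, TATAAA had the widest margin. It occurred in 89 of 261 windows (34.1%, 95% Wilson interval 28.6 to 40.0) and in 23.0% of tiled windows, a difference of 11.1 points (95% Newcombe interval 5.64 to 17.1) that was 4.76 points when only 50 bp to either side of the summit was searched. In weaker regions it occurred in 28.6%, and that difference of 5.50 points had an interval of −0.0767 to 11.5. The word was not particular to distal intergenic peaks. It occurred at 36.3% of intronic peaks (difference −2.22 points, −8.57 to 4.47) and 41.0% of intergenic peaks near a TSS (−6.93 points, −13.3 to −0.155). CGATA occurred in 25.3% against 19.9% of tiled windows (difference 5.34 points, 0.449 to 10.9) and 22.0% of windows 500 bp away (3.26 points, −2.91 to 9.78). At intronic peaks CGATA occurred in 23.3% (2.03 points, −3.63 to 8.23) and at intergenic peaks near a TSS in 36.3% (−11.1 points, −16.9 to −4.62). The DRE occurred at 5 peaks (1.92%) against 0.446% of tiled windows (1.47 points, 0.375 to 3.96), and at 6.57% of intergenic peaks near a TSS. Within 50 bp of the summit the DRE's excess over tiled windows was 0.169 points, and against windows 500 bp away the interval of its difference included 0 (1.34 points, −0.212 to 3.86). The repeat word GAGAGAGA occurred at 2.30% against 0.930% of tiled windows (1.37 points, 0.127 to 3.99), but was less frequent than the 3.64% of windows 500 bp away (−1.34 points, −3.67 to 1.59). The M1BP element GGTCACAC was in none of the 261 windows, which allows a share of up to 1.15% (3 counts of 261), and in 2.81% of windows at intergenic peaks near a TSS. For the GAGA element, the GATA site, the E-box read as CAGCTG, the E-box of clock factors read as CACGTG and the site of the early activator Zelda read as CAGGTA, the interval of the difference from tiled windows included 0. The same held for the simple repeat CACACACA, for a control word rich in A and T read as AATTAA, and for one rich in G and C read as GCCGCC. A match is only a description of the letters, and these windows also differ in GC content, whose part in the word counts was not tested.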

How the data were processed

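Anti-GFP immunoprecipitates of CG5204-GFP male flies were sequenced in 2 replicates. Chromatin was sonicated to 200 to 800 bp, per the labels, which name a control experiment not analysed here. The authors deposited narrowPeak lists on dm6: 30000 regions for each replicate and for the pooled replicates, background included, and 2868 optimal IDR peaks. The signal of each peak and the −log10 of its q-value are as deposited by the authors. No label or header names the peak caller, aligner or filters (not given in the sources used here), and read totals are unknown. Of the 261 peaks, 241 were 430 bp wide, so summits were used.

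Coordinates are 1-based on dm6. Genes came from Ensembl release 115 (18277 genes, 23694 TSSs), on the same assembly. The summit, the distance rule and a match between lists (summits within 100 bp) are as stated in the report. Weaker regions are those of the pooled list that are not IDR peaks. Base shares count every unambiguous base of the arms X, 2L, 2R, 3L, 3R and 4. For shares at the same TSS distances, bases or regions in 5 distance bins were weighted by the peaks' counts. The nearest gene on each side is the flank. Both strands of the 201 bp around each summit were searched for 13 words.

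Shares have 95% Wilson intervals and differences between classes 95% Newcombe intervals. Both cover counting only, since peaks are not replicates, and 1 group allows no test between conditions. Named peaks are the 12 strongest, the 3 farthest, the 3 on either side of the limit, up to 3 per gene list, and, chosen after their values were seen, those that illustrate shared gaps, gene ends, promoter pairs and transposable elements. Of 436 list symbols 20 were not found. Members and lists were chosen with earlier results of these data known. Alternatives changed the TSS distance, peaks, genes, matching, windows and replicates. Tools were statsmodels 0.14.6, pandas 2.3.3, numpy 2.4.6 and matplotlib 3.10.9 under Python 3.11.15. The sequence of some peaks is not reported here. The code was tested on simulated data.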

Additional observations from a re-analysis of the deposited data

How the results depend on the processing

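With summits over 1000 bp from every TSS, distal intergenic peaks were 6.56% of IDR peaks, their median TSS distance 3008 bp, the share nearer to a 3' end 52.7% and the share between convergent genes 27.7%. Over 2000 bp, 120 peaks remained (4.18%), with a median distance of 4163.5 bp, 60% nearer to a 3' end, 33.3% between convergent and 41.7% between tandem genes. Over bases that meet the rule both shares also rose with TSS distance. From the bin of 500 to 1000 bp to that beyond 10000 bp, the convergent share went from 11.4% to 30.8%. The share of bases nearer to a 3' end went from 34.0% to 58.7%. The cause of the rise in the 3' end and convergent shares of the peaks was not tested. Among the 1434 strongest IDR peaks there were 101 (7.04%), with a median signal of 105.0, a median distance of 1332 bp and 95.05% matched in both replicates. Under the limit of 5% on the false discovery rate there were 143 (7.99%), with a median signal of 88.6 and 95.1% matched. With protein-coding genes only, they were 11.96% of IDR peaks at a median distance of 2998 bp. With the whole peak, not only its summit, outside every gene, 241 remained, 41.5% of them nearer to a 3' end and 18.7% between convergent genes. With 1 replicate left out, the share was 8.05% (without replicate 2) and 8.75% (without replicate 1), and the median signal, on the scale of a single replicate, 34.5 to 36.0. Matching summits within 50 bp gave 65.1% in both replicates and within 300 bp 97.3%, so the matched share depends on the tolerance. The repeat word GAGAGAGA was 1.34 points less frequent (difference −1.34) than in windows 500 bp to either side, and the cause was not tested. Searching 50 bp to either side of the summit lowered the excess over tiled windows to 4.76 points for the TATA box and 0.169 for the DRE. No paired analysis was possible because there is 1 group. Merging overlapping peaks was chosen after seeing the data and changed none of the summary values beyond their error. Depth is unknown, and members near the signal floor of the list, where replicates were more often over 2-fold apart than among the strongest, are the least certain.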

Other observations

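Over all 2080 words of 6 letters, counted on both strands, the 8 with the largest excess at distal intergenic peaks over tiled windows consisted of A and T alone. AAAATA occurred in 54.8% of windows against 38.4% of tiled windows and 43.4% of weaker regions, and TTAAAA in 48.7% against 32.7% and 38.4%. Both were as frequent at intronic peaks (54.5% and 47.4%) and more frequent at intergenic peaks near a TSS (61.0% and 55.3%). At the other end, CCCAAA occurred in 6.90% against 15.5% and CAAGGA in 2.68% against 9.80% of tiled windows. These words were chosen by their difference and are given as a description, with no test.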
